A study of Mus musculus with 12 samples.

Results

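The Gimap genes encode GTPases of immunity-associated proteins, a family of guanine-nucleotide binding proteins found mainly in lymphocytes. They were followed in CD8 T cells after brief culture with 3 different stimuli. The family was taken as the rows of the deposited gene table named Gimap1, Gimap3, Gimap4, Gimap5, Gimap6, Gimap7, Gimap8 and Gimap9, which are 8 of its 20778 genes, and no other row had a symbol starting with Gimap. All 8 were among the 12122 genes with enough counts to be tested. IFNγ raised 5 of them, led by Gimap4 at 1.57-fold, and lowered none, where 8.17% of all tested genes were called higher and 4.27% lower (edgeR, adjusted p under 0.05). αCD3 lowered Gimap3, Gimap8 and Gimap9 and raised Gimap5, which is 4 of 8 where 38.6% of tested genes were called. LPS raised Gimap5 and Gimap8 and lowered Gimap3, which is 3 of 8 where 49.3% were called. Calls kept under all 13 alternative settings were Gimap4, Gimap8 and Gimap9 after IFNγ, Gimap3 and Gimap9 after αCD3, and Gimap5 after LPS. The other calls did not hold under all of these settings, which are listed at the end.

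The cells came from spleens of C57BL/6 mice and were isolated with magnetic beads as CD8 T cells. The labels name no mutant allele or transgene. They give an age of 6 weeks, whereas the methods describe somewhat older animals. All cells were kept in culture for 6 hours. The Naïve group received nothing further, and the other groups received an antibody to the CD3 chains of the T cell receptor (αCD3, 1 µg/ml), interferon gamma (IFNγ, 70 ng/ml), an inflammatory cytokine of lymphocytes, or lipopolysaccharide (LPS, 1 µg/ml), a bacterial ligand of Toll-like receptor 4. A separate label writes the αCD3 and LPS doses with mg in place of µg, so these units are uncertain. Each group held 3 mRNA libraries. Whether replicates were separate mice or separate wells is not given in the labels, so p-values measure the spread between these libraries, which may be technical.

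GIMAP proteins are anchored on membranes of organelles such as lysosomes, mitochondria and the endoplasmic reticulum, and they matter for the survival of resting lymphocytes. Loss of Gimap5 in mice or rats leads to a severe shortage of T cells, and loss of Gimap1 depletes mature T and B cells. Their genes lie side by side in a single cluster, and several are expressed in B cells as well as T cells.

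Total counts ranged from 10.2 M to 27.6 M per library, with αCD3 replicate 1 the deepest and LPS replicate 1 the shallowest. Expression is given as CPM, which are counts divided by library size after TMM scaling, a correction for differences in RNA composition. The CD8 identity was checked against 9 T cell and CD8 markers in the table, none of which was at 0 in any library. Cd8a, a chain of the CD8 co-receptor, ranged from 187.6 to 503.8 CPM. However, 10 B cell markers were also well expressed, and their summed level (2089 to 3872 CPM) was similar to or above that of the T cell and CD8 markers (1431 to 2427 CPM). The B cell marker Ms4a1 was at 373.5 CPM or more in every library. NK cell markers were low, with 6 genes summing to 7.36 to 30.5 CPM. Myeloid markers (12 genes) summed to 1052 to 3081 CPM and erythroid markers (5 genes) to 336 to 4114 CPM. The Gimap levels below are thus those of RNA that held T cell, B cell, myeloid and erythroid markers. In bulk RNA, fewer cells of a type and less RNA per cell cannot be told apart.

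The 8 genes occupied 123.6 kb of mouse chromosome 6 in GRCm38 (mm10), annotated by GENCODE M21. From the proximal end they were Gimap8 (chr6:48647234-48660875), Gimap9 (chr6:48676129-48679114), Gimap4 (chr6:48684549-48692060), Gimap6 (chr6:48701582-48708225), Gimap7 (chr6:48718621-48724636), Gimap1 (chr6:48739054-48743795), Gimap5 (chr6:48746197-48754210) and Gimap3 (chr6:48764464-48770851). Gimap6 and Gimap3 are on the minus strand and the others on the plus strand. All 8 are protein-coding. Gimap8 had the longest coding sequence at 2067 bases, and it encodes several GTPase domains, whereas the other coding sequences spanned 876 to 987 bases.

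Gimap3 and Gimap5, which face each other at the distal end of the cluster, are the closest pair in sequence. Their coding sequences were 90.3% identical over 898 aligned bases, compared with 55.9% to 66.7% for every other pair of the 8. The longest stretch without a mismatch was 140 bases, at coding bases 175 to 314 of Gimap3 and 187 to 326 of Gimap5. It is shown because reads that fall inside it cannot be assigned to either gene from their letters, and because the levels of these 2 genes moved in opposite directions after αCD3 and LPS.
Gimap3 and Gimap5 shared coding run: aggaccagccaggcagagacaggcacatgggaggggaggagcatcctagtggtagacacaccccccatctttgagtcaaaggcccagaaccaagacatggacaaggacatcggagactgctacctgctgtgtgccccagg
The sharing was also counted at the scale of the pseudo-aligner's words, over whole annotated transcripts and not the coding sequence alone. Of all 31-base words in its annotated transcripts, Gimap3 shared 13.2% with Gimap5, and Gimap5 shared 8.0% with Gimap3. Unique words made up 85.0% for Gimap3 and 89.7% for Gimap5. Gimap4 and Gimap9 had only unique words, and Gimap6, Gimap7 and Gimap8 had 97.8% or more. Gimap1 had the lowest share at 61.8%, with 33.9% shared with Gimap1os, an antisense transcript that overlaps it and is no row of the table. Counts of Gimap1 may thus be less certain, which was not tested. A read-through gene, Gm28053, overlaps Gimap7, Gimap1 and Gimap5 on the same strand and is no row of the table either.

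The promoter windows below, 250 bases before and 50 bases after the RefSeq transcription start in GRCm38.p6, are those of the 5 members that kept a call against Naïve under all 13 alternative settings in at least 1 comparison, each read along its own gene. Capitals mark matches to 2 motifs searched on both strands. The ISRE-like motif of interferon-activated factors was GAAA followed after any 2 bases by GAAA, and the NF-kB-like motif was GGGA followed after any 4 bases by CC.
Gimap8, chr6:48647111-48647410, plus strand: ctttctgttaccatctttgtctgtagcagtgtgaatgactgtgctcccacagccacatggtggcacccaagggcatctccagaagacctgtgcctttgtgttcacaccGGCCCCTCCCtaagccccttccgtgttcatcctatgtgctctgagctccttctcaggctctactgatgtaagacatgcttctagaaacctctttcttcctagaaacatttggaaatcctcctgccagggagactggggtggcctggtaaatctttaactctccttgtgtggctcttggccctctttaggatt
Gimap9, chr6:48675885-48676184, plus strand: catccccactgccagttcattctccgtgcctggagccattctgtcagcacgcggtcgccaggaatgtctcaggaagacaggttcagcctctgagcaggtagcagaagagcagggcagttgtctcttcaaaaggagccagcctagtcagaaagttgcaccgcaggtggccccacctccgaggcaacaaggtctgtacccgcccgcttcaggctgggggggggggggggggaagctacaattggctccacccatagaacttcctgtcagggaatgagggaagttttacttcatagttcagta
Gimap4, chr6:48684328-48684627, plus strand: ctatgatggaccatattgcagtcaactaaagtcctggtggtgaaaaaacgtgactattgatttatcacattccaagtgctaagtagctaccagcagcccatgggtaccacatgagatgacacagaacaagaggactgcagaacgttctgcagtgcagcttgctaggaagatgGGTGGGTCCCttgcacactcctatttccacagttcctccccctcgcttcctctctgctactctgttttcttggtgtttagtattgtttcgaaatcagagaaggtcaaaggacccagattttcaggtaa
Gimap5, chr6:48745947-48746246, plus strand: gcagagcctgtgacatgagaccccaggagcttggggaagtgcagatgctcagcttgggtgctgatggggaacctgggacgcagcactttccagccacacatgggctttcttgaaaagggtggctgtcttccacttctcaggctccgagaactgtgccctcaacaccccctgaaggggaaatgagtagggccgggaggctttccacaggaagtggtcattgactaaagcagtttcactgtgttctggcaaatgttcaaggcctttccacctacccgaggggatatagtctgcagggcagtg
Gimap3, chr6:48770802-48771101, minus strand: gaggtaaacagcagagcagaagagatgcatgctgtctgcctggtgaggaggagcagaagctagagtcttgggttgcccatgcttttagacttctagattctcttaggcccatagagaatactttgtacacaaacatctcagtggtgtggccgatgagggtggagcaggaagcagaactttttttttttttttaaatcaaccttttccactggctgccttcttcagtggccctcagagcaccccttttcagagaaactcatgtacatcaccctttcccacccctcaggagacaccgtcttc
RefSeq gave 9 such windows for the 8 genes, since Gimap8 has 2 annotated starts. Of the 2 windows of Gimap8, only that at chr6:48647111-48647410 is printed. No window held an ISRE-like match, which 3.44% of all 32851 promoters held. An NF-kB-like match lay in 4 of 9 windows, both of Gimap8 (the same letters), Gimap4 and Gimap7, compared with 20.7% of promoters. Of the windows printed here, those of Gimap3, Gimap5 and Gimap9 held no match to either motif. Searched in the same way, a RUNX-like motif (TGTGGT) lay in 3 of 9 windows and 16.8% of promoters, an ETS-like motif (CAGGAA) in 5 of 9 and 30.6%, and a KLF-like motif (CACCC) in 6 of 9 and 57.5%. These 3 are not capitalised, and the KLF-like match of Gimap4 overlapped its NF-kB-like match. Such matches are descriptions of letters and not of bound sites.

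Per kb of merged exon, Gimap4 was the most abundant member in each group and made up 46.1% ± 1.23 (SD, n = 3) of the family's length-scaled level in Naïve, 48.7% ± 0.861 in αCD3, 52.1% ± 1.74 in IFNγ and 48.1% ± 3.88 in LPS. Its Naïve level was 322 ± 19.8 CPM per kb. Gimap6 followed at 148 ± 7.96 and Gimap9 at 82.6 ± 5.83 CPM per kb, and this order of the top 3 was the same in all 4 groups without overlap between libraries. Next in Naïve came Gimap3 at 45.7 ± 2.49, Gimap1 at 37.3 ± 1.03 and Gimap8 at 35.7 ± 3.68 CPM per kb, where the libraries of Gimap1 and Gimap8 overlapped. In IFNγ and in LPS these 3 genes overlapped and have no fixed order. Gimap5 at 14.4 ± 1.24 and Gimap7 at 13.7 ± 1.00 CPM per kb were lowest and overlapped in Naïve and in αCD3. Gimap7 was above Gimap5 in IFNγ, at 19.2 ± 1.66 against 16.8 ± 0.362 CPM per kb, and below it in LPS, at 13.7 ± 2.53 against 23.0 ± 4.95. Neither of these orders involved overlapping libraries. The plot of levels per library gives the CPM behind all 8 genes.

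**Figure D1:**
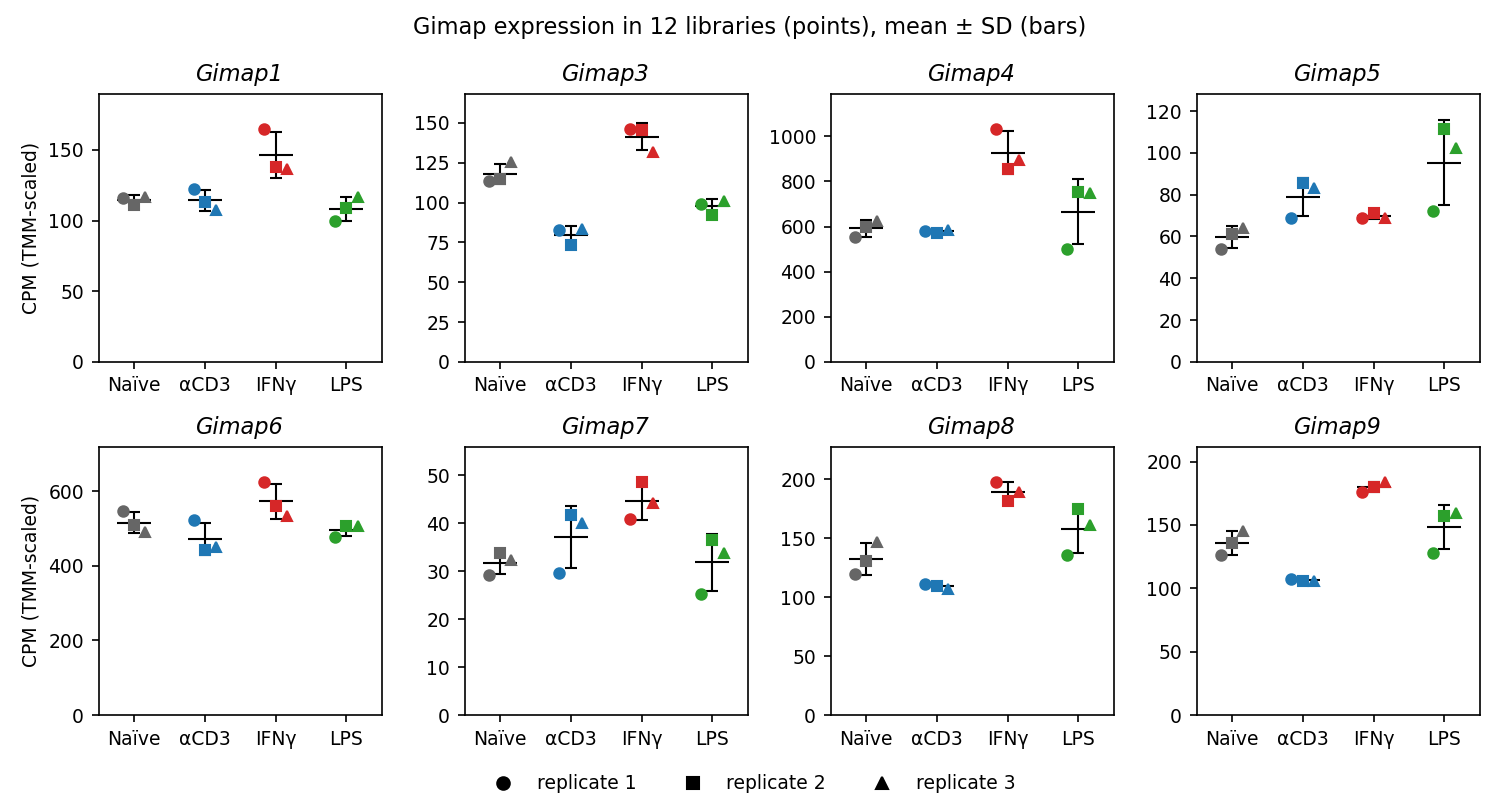
Level of each Gimap gene in CPM (vertical axes, from 0) in the 3 libraries of each group (horizontal axes), with marker shape for replicate number and bars for mean ± SD. The IFNγ libraries sit above all Naïve libraries for every gene but Gimap6, and LPS replicate 1 sits below the other LPS libraries for Gimap4 (498.6 CPM) and Gimap5 (72.3 CPM).

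IFNγ against Naïve asks what the cytokine did to each member. The family as a whole stood higher, at a summed level of 2180 to 2455 CPM in IFNγ and 1657 to 1745 CPM in Naïve. By edgeR's quasi-likelihood test, 5 of 8 members were called higher (adjusted p under 0.05) and 0 lower, where 8.17% of all tested genes were called higher and 12.4% were called in either direction. No member had an unadjusted p under 0.05 in the lower direction (0 of 8), nor was any called lower by DESeq2 or limma-voom. Libraries did not overlap for 7 of the 8, all in the higher direction, compared with 16.1% of tested genes. The members' median log2 fold change was 0.38, beside -0.02 over all tested genes.

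Gimap4, a regulator of T cell death and cytokine secretion, showed the largest rise. Its level was 552.3, 600.0 and 623.6 CPM in the Naïve libraries and 1034.6, 853.1 and 896.7 CPM in the IFNγ libraries. The lowest IFNγ library was well above the highest Naïve library. The log2 fold change was 0.65 ± 0.14 (SE), or 1.57-fold, with an adjusted p of 0.0113 by edgeR. Gimap8 was at 119.4, 130.2 and 146.5 CPM in Naïve and 197.8, 181.3 and 189.1 CPM in IFNγ, with no overlap. It rose by 0.52 ± 0.10 on the log2 scale (adjusted p = 0.00602, edgeR).

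Gimap9, the gene next to Gimap8, has no well-established role. Its levels were 126.0, 135.7 and 145.1 CPM in Naïve and 176.1, 180.4 and 184.1 CPM in IFNγ, with no overlap. It rose by 0.41 ± 0.08 on the log2 scale (adjusted p = 0.00972, edgeR). Gimap4, Gimap8 and Gimap9 remained called under all 13 alternative settings.

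Gimap1 and Gimap3 changed less. Gimap1, required for mature lymphocytes, was at 116.2, 111.0 and 116.8 CPM in Naïve and 165.1, 137.8 and 136.4 CPM in IFNγ, with IFNγ replicate 1 the highest. Its log2 fold change was 0.35 ± 0.09 (adjusted p = 0.0255). This call was lost without any one of the Naïve replicates or without IFNγ replicate 1 (adjusted p from 0.0579 to 0.0942), and with library size alone (0.22, adjusted p = 0.145) or no count filter (adjusted p = 0.0503). Gimap3, which is best known from its influence on mitochondrial genomes in mice, was at 113.4, 114.7 and 125.1 CPM in Naïve and 146.4, 145.7 and 131.5 CPM in IFNγ. It rose by 0.26 ± 0.07 (adjusted p = 0.0404), a call lost without any one of the Naïve replicates or without IFNγ replicate 1 or 2 (adjusted p from 0.0539 to 0.141). With library size alone its log2 fold change was 0.12 (adjusted p = 0.314), and the call was also lost with no count filter (0.0890) and only the 2 groups compared (0.0694).

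The remaining 3 members were not called by edgeR. Gimap7 was at 29.2, 33.8 and 32.3 CPM in Naïve and 41.0, 48.7 and 44.1 CPM in IFNγ, all IFNγ libraries being higher. Its log2 fold change of 0.49 ± 0.15 had an adjusted p of 0.0621, which was 0.00148 when the replicate number entered as a block, 0.0370 with DESeq2 and 0.0195 with only the 2 groups compared. Gimap5 was at 54.1, 61.2 and 64.1 CPM in Naïve and 68.9, 71.4 and 68.7 CPM in IFNγ. The groups did not overlap, yet the fold change of 0.22 ± 0.14 was not called (95% interval, -0.10 to 0.54, adjusted p = 0.384). Gimap6, an autophagy-linked member, gave 0.15 ± 0.08 (95% interval, -0.03 to 0.33, adjusted p = 0.280) and its libraries overlapped.

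Same-numbered libraries of the 4 groups varied together, so each IFNγ library was also set against the Naïve library of its number. All 8 members were higher in 3 of 3 such pairs. The log2 difference of Gimap4 was 0.91, 0.51 and 0.52 in pairs 1 to 3, that of Gimap8 was 0.73, 0.48 and 0.37, and that of Gimap7 was 0.49, 0.53 and 0.45. Marker levels also moved. Summed B cell markers were 2831 to 2957 CPM in IFNγ and 3526 to 3872 CPM in Naïve, with 2 of 10 called lower. Summed T cell and CD8 markers overlapped (1772 to 1925 and 1718 to 1905 CPM), with 0 of 9 called by edgeR, 3 at an unadjusted p under 0.05, 2 by DESeq2, 0 by limma-voom and 3 with the replicate block. Myeloid markers summed to 1873 to 3081 CPM in IFNγ and 1101 to 2026 CPM in Naïve, and their median log2 fold change was -0.09. By edgeR 3 of 12 were called higher and 0 lower, with 2 lower at an unadjusted p under 0.05, 1 by DESeq2, 0 by limma-voom and 3 with the replicate block. Erythroid markers had a median of 0.87 and summed to 569, 4114 and 2143 CPM in IFNγ replicates 1 to 3, compared with 336, 1867 and 1447 CPM in Naïve. Of these 5 markers 0 were called by edgeR, at an unadjusted p under 0.05, by DESeq2 or by limma-voom, and 5 were called higher with the replicate block. None of the B cell, T cell or myeloid markers in the table was at 0 in these libraries. Their part in the Gimap values was not tested.

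**Figure D2:**
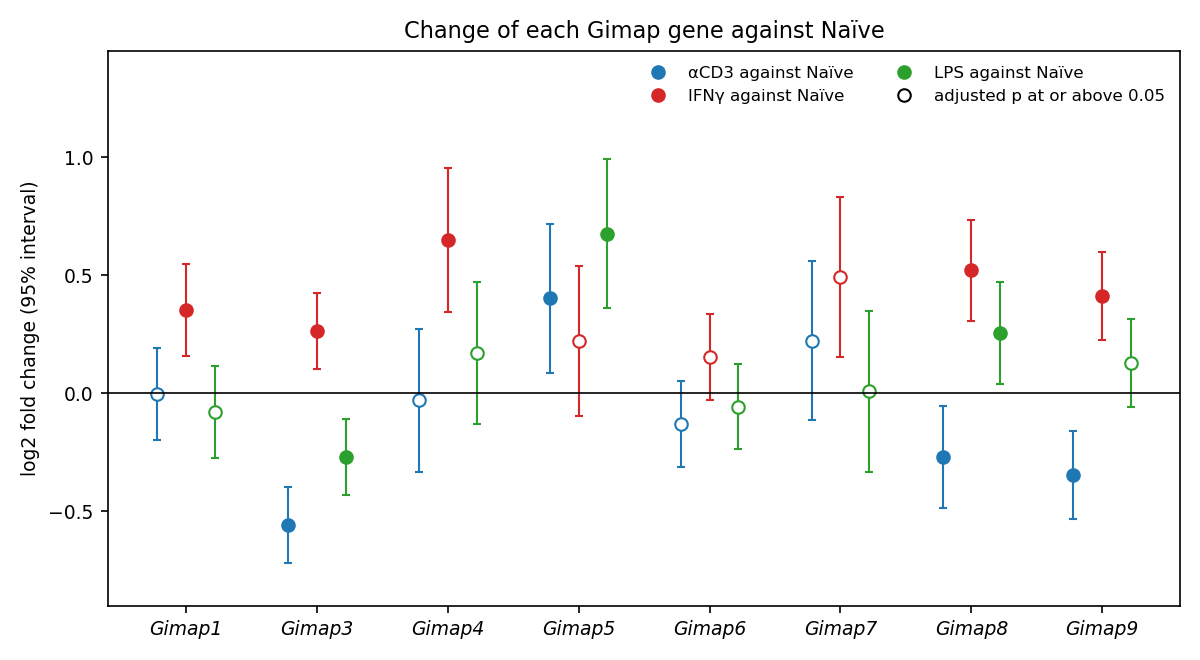
Log2 fold change against Naïve (vertical axis) of the 8 Gimap genes (horizontal axis) in αCD3 (blue), IFNγ (red) and LPS (green), with bars for 95% intervals and open points for adjusted p at or above 0.05. All 8 IFNγ points lie above 0, whereas Gimap3 lies at -0.56 in αCD3 and -0.27 in LPS and Gimap5 lies at 0.40 and 0.68; the 3 contrasts share the Naïve libraries.

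αCD3 against Naïve, a comparison that shares its Naïve libraries with the previous one, asks how members responded to a signal through the T cell receptor. The family's summed level was 1545 to 1623 CPM, a little below the 1657 to 1745 CPM of Naïve, and its members moved in opposite directions. By edgeR, 1 of 8 was called higher and 3 lower, where 38.6% of all tested genes were called, 22.9% higher and 15.7% lower. The median over the members was -0.08, and over all tested genes -0.02. Libraries did not overlap for 4 of 8 members, compared with 52.4% of tested genes.

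Gimap3 fell most. It was at 82.6, 73.5 and 83.5 CPM in αCD3, all below the lowest Naïve library at 113.4 CPM. The log2 fold change was -0.56 ± 0.07, with an adjusted p of 0.000222 by edgeR. Gimap9 was at 107.0, 106.2 and 106.2 CPM in αCD3, the narrowest spread of any member in any group. All 3 were below the Naïve libraries, and the log2 fold change was -0.35 ± 0.08 (adjusted p = 0.00815). Both calls remained under all 13 alternative settings.

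Gimap8 moved in the same direction as Gimap9. It was at 111.4, 109.7 and 107.2 CPM in αCD3, below all Naïve libraries, with a log2 fold change of -0.27 ± 0.10 (adjusted p = 0.0474). This call was lost without Naïve replicate 2 or 3 or without any one αCD3 replicate (adjusted p from 0.0708 to 0.180), and with no count filter (0.0665) or limma-voom (0.0513). Gimap5 moved the other way, at 68.6, 85.5 and 83.0 CPM, all above the Naïve maximum of 64.1 CPM. Its log2 fold change was 0.40 ± 0.14 (adjusted p = 0.0461), a call lost without any one Naïve replicate or without αCD3 replicate 2 or 3 (adjusted p from 0.0648 to 0.148). It was also lost with DESeq2 size factors (0.0597), library size alone (0.101), no count filter (0.0618) and limma-voom (0.0516).

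The other 4 members were not called by edgeR. Gimap4 was at 580.2, 572.1 and 586.5 CPM in αCD3, inside the Naïve range, with a log2 fold change of -0.03 ± 0.14 (95% interval, -0.33 to 0.27). Gimap1 was at 122.3, 113.3 and 107.3 CPM, also across the Naïve range (95% interval, -0.20 to 0.19). Gimap6 was at 521.5, 443.2 and 449.2 CPM, with replicate 1 inside the Naïve range and the other libraries below it (log2 fold change -0.13 ± 0.08, adjusted p = 0.232). Gimap7 was at 29.7, 41.7 and 40.1 CPM, with an adjusted p of 0.274 that became 0.0454 with the replicate block (log2 fold change 0.21). Against the Naïve library of the same number, Gimap3, Gimap6, Gimap8 and Gimap9 were lower in 3 of 3 pairs, and Gimap5 and Gimap7 were higher in 3 of 3.

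Marker levels differed here too. B cell markers summed to 2457 to 2859 CPM in αCD3, below Naïve, with 6 of 10 called lower. T cell and CD8 markers summed to 2193 to 2427 CPM, above Naïve, with 4 of 9 called higher and 1 lower. Myeloid markers had 4 of 12 called lower and 1 higher (8 lower and 2 higher with the replicate block), with a median log2 fold change of -0.82, and CD4 T cell markers had 2 of 4 called lower. Their part in the Gimap values was not tested.

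LPS against Naïve asks the same of a bacterial ligand that acts on cells carrying Toll-like receptor 4. The summed Gimap level was 1536 to 1938 CPM in LPS, which overlapped Naïve. By edgeR, 2 of 8 members were called higher and 1 lower, where 49.3% of all tested genes were called, 26.9% higher and 22.3% lower. The median over the members was 0.07, beside -0.01 over all tested genes. Libraries did not overlap for 2 of 8, compared with 58% of tested genes.

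Gimap5, needed for the survival of peripheral T cells, showed the largest change. It was at 72.3, 111.6 and 102.1 CPM in LPS, all above Naïve, with replicate 1 the closest. Its log2 fold change was 0.68 ± 0.14, or 1.60-fold (adjusted p = 0.00285, edgeR), and the call remained under all 13 alternatives. Gimap3 was at 99.3, 92.3 and 101.2 CPM, all below Naïve, with a log2 fold change of -0.27 ± 0.07 (adjusted p = 0.0110, and 0.0501 without LPS replicate 2). Gimap8 was at 136.0, 175.1 and 161.4 CPM, and replicate 1 lay inside the Naïve range. Its log2 fold change was 0.25 ± 0.10 (adjusted p = 0.0488), a call lost without Naïve replicate 1 or 2 or LPS replicate 2 or 3 (adjusted p from 0.113 to 0.196). It was also lost with DESeq2 size factors (0.0627), no count filter (0.0964), limma-voom (0.0515), only the 2 groups compared (0.140) and library size alone (0.723).

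LPS replicate 1 stood below the other LPS libraries for 7 of the 8 members, Gimap3 being the exception. Gimap4 was at 498.6 CPM in that library and at 751.3 and 747.0 CPM in the others. With all libraries its log2 fold change was 0.17 ± 0.14 (95% interval, -0.13 to 0.47, adjusted p = 0.329). Without LPS replicate 1 it was 0.34 (adjusted p = 0.00720), and Gimap9 went from 0.13 ± 0.08 (adjusted p = 0.226) to 0.22 (adjusted p = 0.0185). That library also differed in its markers. Its B cell markers summed to 3082 CPM, compared with 2089 and 2145 CPM in the other LPS libraries, its myeloid markers to 1382 CPM compared with 2057 and 1900 CPM, and its erythroid markers to 478 CPM compared with 2885 and 1928 CPM. Replicate 1 had the lowest myeloid and erythroid sums in each of the 4 groups, so these low sums were not particular to LPS. The T cell and CD8 markers of LPS replicate 1 (1514 CPM) lay between those of the others (1431 and 1639 CPM). The myeloid marker Tyrobp was at 0 in LPS replicate 1, and no B cell, T cell or CD8 marker was at 0 in any LPS library. Marker levels differed from Naïve as well. T cell and CD8 markers summed to 1431 to 1639 CPM in LPS and 1718 to 1905 CPM in Naïve, with 6 of 9 called lower and 0 higher by edgeR, and 0 higher at an unadjusted p under 0.05, by DESeq2 and by limma-voom. B cell markers had 4 of 10 called lower and 1 higher, CD4 T cell markers 3 of 4 lower, and myeloid markers 3 of 12 lower (7 lower and 3 higher with the replicate block). NK cell markers had 1 of 6 called lower (3 lower and 1 higher with the replicate block). Erythroid markers had a median of 0.52 and summed higher in LPS than in Naïve in 3 of 3 same-numbered pairs, with 0 of 5 called by edgeR, at an unadjusted p under 0.05, by DESeq2 or by limma-voom and 3 higher with the replicate block. Their part in the Gimap values was not tested.

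Gimap1, Gimap6 and Gimap7 were not called after LPS. Gimap1 was at 99.8, 108.6 and 116.9 CPM (95% interval of the log2 fold change, -0.28 to 0.11) and Gimap6 at 476.2, 505.7 and 505.9 CPM (95% interval, -0.24 to 0.12). Gimap7 was at 25.3, 36.6 and 33.7 CPM (95% interval, -0.33 to 0.35). Against the Naïve library of the same number, Gimap5, Gimap8 and Gimap9 were higher in 3 of 3 pairs and Gimap3 was lower in 3 of 3. Gimap4 was lower in pair 1 (-0.15 on the log2 scale) and higher in pairs 2 and 3 (0.32 and 0.26).

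Gimap3 and Gimap5, the closest pair in sequence, thus shifted against each other. The ratio of Gimap3 to Gimap5 counts does not depend on how libraries are scaled. It was 2.09, 1.88 and 1.95 in the Naïve libraries and 2.12, 2.04 and 1.91 in the IFNγ libraries. In αCD3 it was 1.20, 0.860 and 1.01, and in LPS it was 1.37, 0.827 and 0.991. Every αCD3 and LPS library was thus below every Naïve and IFNγ library, and replicate 1 gave the highest ratio in each of the 4 groups. When the counts of both genes were summed, an alternative chosen after the data had been seen, the sum was not called in αCD3 against Naïve (log2 fold change -0.16, adjusted p = 0.142) or in LPS against Naïve (0.12, adjusted p = 0.239). In IFNγ against Naïve the sum gave 0.25 (adjusted p = 0.0720, and 0.0160 with the replicate block). Since both genes share the run printed above, how the pseudo-aligner divided shared reads enters both values, and its part was not tested.

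**Figure D3:**
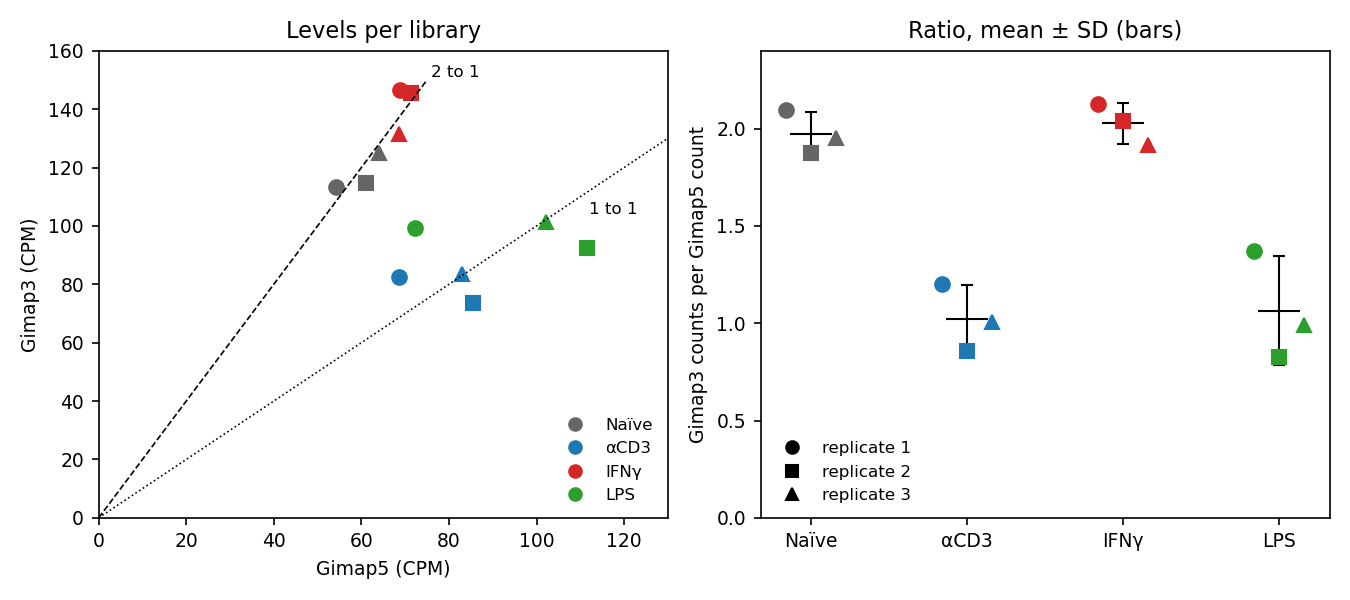
Left, Gimap3 against Gimap5 level in CPM in each of the 12 libraries, with a dashed line at 2 to 1 and a dotted line at 1 to 1; right, the ratio of their counts by group, with bars for mean ± SD. Naïve and IFNγ libraries lie near 2 to 1 (ratios of 1.88 to 2.12), and αCD3 and LPS libraries lie near 1 to 1 (0.827 to 1.37).

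The stimulated groups were also set against each other. IFNγ against αCD3 gave the largest median of the 6 comparisons, with 6 of 8 members called higher in IFNγ and 0 lower, where 15.8% of tested genes were called higher and 37.2% in either direction. The members' median log2 fold change was 0.52, beside 0.03 over all tested genes. T cell and CD8 markers had 5 of 9 called lower in IFNγ and 1 higher, B cell markers 4 of 10 called higher and 1 lower, and CD4 T cell markers 2 of 4 called higher. Myeloid markers had a median of 0.55, with 1 of 12 called higher (6 by DESeq2, 7 with the replicate block). Erythroid markers had a median of 1.03, with 0 of 5 called by edgeR, at an unadjusted p under 0.05, by DESeq2 or by limma-voom and 5 higher with the replicate block. Their part in the Gimap values was not tested. Gimap3 was 1.77-fold higher in IFNγ than in αCD3 (log2 fold change 0.82 ± 0.07, adjusted p = 1.75e-05), Gimap8 was 1.73-fold higher (adjusted p = 0.000126) and Gimap9 1.69-fold higher (adjusted p = 6.36e-05). Gimap4 differed by 0.68 ± 0.14 (adjusted p = 0.00279) and Gimap1 by 0.36 ± 0.09 (adjusted p = 0.00878). Gimap6 differed by 0.28 ± 0.08 (adjusted p = 0.0193), a call lost without αCD3 replicate 2 or 3 or IFNγ replicate 1 (adjusted p from 0.0771 to 0.0864), with library size alone (0.0547) and with only the 2 groups compared (0.0593). Gimap7 gave 0.27 ± 0.15 (adjusted p = 0.196, and 0.0133 with the replicate block). Gimap5 gave -0.18 ± 0.14 (95% interval, -0.50 to 0.14).

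In IFNγ against LPS, 6 of 8 members were called higher in IFNγ and Gimap5 was called lower, where 18% of tested genes were called higher, 22.4% lower and 40.4% in either direction. The members' median was 0.36, beside 0.04 over all tested genes. T cell and CD8 markers moved the same way, with 6 of 9 called higher in IFNγ and a median of 0.39, B cell markers had 4 of 10 called higher and 4 lower, CD4 T cell markers 1 of 4 called higher and NK cell markers 1 of 6 called higher (3 higher and 1 lower with the replicate block). Myeloid markers had a median of 0.62, with 2 of 12 called higher (4 by DESeq2, 0 by limma-voom, 7 with the replicate block). Erythroid markers had a median of 0.39, with 0 of 5 called by edgeR, at an unadjusted p under 0.05, by DESeq2 or by limma-voom and 1 higher with the replicate block. Their part in the Gimap values was not tested. Gimap3 (0.53 ± 0.07, adjusted p = 0.000201) and Gimap1 (0.43 ± 0.09, adjusted p = 0.00268) remained called under all 13 alternatives. The others were less firm. Gimap4 gave 0.48 ± 0.14 (adjusted p = 0.0166, and 0.0678 without IFNγ replicate 1) and Gimap9 gave 0.28 ± 0.08 (adjusted p = 0.0210, and 0.0502 to 0.0608 without LPS replicate 1 or IFNγ replicate 2 or 3). Gimap7 gave 0.48 ± 0.15 (adjusted p = 0.0285, and 0.0518 to 0.0934 without IFNγ replicate 2 or 3 or LPS replicate 1 or 3). Gimap8 gave 0.27 ± 0.10 (adjusted p = 0.0490, and 0.0651 to 0.149 without any one IFNγ replicate or LPS replicate 1 or 3). Gimap5 was lower in IFNγ by -0.45 ± 0.14 (adjusted p = 0.0268, and 0.0565 to 0.116 without any one IFNγ replicate or LPS replicate 2 or 3). Gimap6 gave 0.21 ± 0.08 (adjusted p = 0.0626), which was 0.0181 with the replicate block, 0.0467 without IFNγ replicate 3, 0.0427 with DESeq2 size factors, 0.0332 with library size alone and 0.0222 with DESeq2. With only the 2 groups compared, Gimap4, Gimap5, Gimap8 and Gimap9 were not called (adjusted p from 0.0607 to 0.1002), and Gimap8 was not called with no count filter (0.0795).

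In αCD3 against LPS, 3 of 8 members were called lower in αCD3 and 0 higher, where 9.76% of tested genes were called lower, 9.64% higher and 19.4% in either direction. T cell and CD8 markers had 7 of 9 called higher in αCD3 and 1 lower, B cell markers 3 of 10 called higher and 3 lower, and CD4 T cell markers 1 of 4 called higher. Erythroid markers had a median of -0.63 and were lower in αCD3 in their summed level in 3 of 3 same-numbered pairs, with 0 of 5 called by edgeR, at an unadjusted p under 0.05, by DESeq2 or by limma-voom and 4 lower with the replicate block. Myeloid markers had 0 of 12 called by edgeR, 1 lower at an unadjusted p under 0.05, 0 by DESeq2 or limma-voom, and 2 higher and 3 lower with the replicate block. Their part in the Gimap values was not tested. Gimap8 (-0.53 ± 0.10, adjusted p = 0.00390) and Gimap9 (-0.48 ± 0.08, adjusted p = 0.00300) remained called under all 13 alternatives. Gimap3 was lower by -0.29 ± 0.07 (adjusted p = 0.0206), a call lost without αCD3 replicate 2 or LPS replicate 3 (adjusted p of 0.0693 and 0.0769), with library size alone (0.143) and with only the 2 groups compared (0.0710). Gimap5 gave -0.27 ± 0.14 (adjusted p = 0.210), which was called with the replicate block (-0.26, adjusted p = 0.0496) and without LPS replicate 1 (-0.44, adjusted p = 0.0147). Gimap4 gave -0.20 ± 0.14 (adjusted p = 0.343, and 0.0121 without LPS replicate 1, at -0.37). Asked whether the 4 groups differed at all, edgeR called 7 of 8 members, where 59.9% of tested genes were called. Gimap6 was the exception (adjusted p = 0.0505).

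Across the 12 libraries, Gimap5 was set apart from the rest of the family. The Pearson correlation of log2 CPM between members other than Gimap5 ranged from 0.202 to 0.976 over 21 pairs, with a median of 0.680. For the 7 pairs that include Gimap5 it ranged from -0.465 to 0.226, with a median of 0.0590. Gimap8 and Gimap9, adjacent at the proximal end and both on the plus strand, gave the highest value of 0.976. These points share libraries and depth and include the group differences, so the values are descriptions.

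Genes of known partners and of lymphocyte survival were examined beside the family. They comprise the autophagy proteins that GIMAP6 binds and their relatives, BCL2-family regulators of cell death, the interleukin 7 receptor and related genes. After IFNγ, 0 of 22 were called by edgeR (median log2 fold change -0.07), where 12.4% of all tested genes were called. At an unadjusted p under 0.05 there were 4. DESeq2 called 1, limma-voom 0 and the replicate block 3, where 15.2%, 11.8% and 24.9% of all tested genes were called. By edgeR at adjusted p under 0.05, αCD3 raised 5 and lowered 8, and LPS raised 5 and lowered 7. Of all tested genes, 38.6% and 49.3% were called in these comparisons. With the replicate block LPS raised 8 and lowered 11, where 59.5% of all tested genes were called. By DESeq2 it raised 6 and lowered 10, where 50.2% were called. Gabarapl2, the autophagy adaptor that GIMAP6 binds, fell by 0.30 after αCD3 and by 0.32 after LPS on the log2 scale. Bcl2l1, which encodes the survival protein BCL-XL, rose by 0.85 ± 0.19 after αCD3 and by 2.16 ± 0.19 after LPS. Bax, which promotes cell death, rose by 1.02 ± 0.14 and 0.84 ± 0.14. Il7r, the receptor for the cytokine that sustains resting T cells, went from 282 ± 43.4 CPM in Naïve to 64.4 ± 21.8 CPM in αCD3, a log2 fold change of -2.12 ± 0.26.

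Of 10 genes of naive T cells, IFNγ raised 2 by edgeR and lowered 0, with 1 lower at an unadjusted p under 0.05, 0 lower by DESeq2 or limma-voom and 2 lower with the replicate block. Ccr7, a chemokine receptor for entry to lymph nodes, rose by 0.26 ± 0.07 after IFNγ. αCD3 raised 2 and lowered 3, among them S1pr1, needed for exit from lymphoid organs (-1.41 ± 0.28), and the transcription factors Klf3 (-1.31 ± 0.21) and Lef1 (-0.88 ± 0.21). LPS raised 1 and lowered 3 (2 and 7 with the replicate block). Of all tested genes, 12.4% were called after IFNγ, 38.6% after αCD3 and 49.3% after LPS. Among tested pathway targets, IFNγ raised 14 of 15 interferon targets (median log2 fold change 2.74), αCD3 raised 11 of 15 T cell receptor activation genes (median 1.68) and LPS raised 12 of 12 NF-kB targets (median 1.10). The fold changes of the Gimap genes were small beside these, with none beyond 0.68 against Naïve. LPS also raised 13 of the 15 interferon targets (median 2.16), and αCD3 raised 11 (median 1.00).

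The genes on either side of the cluster were examined to place the family in its chromosomal setting. Of the 10 nearest protein-coding genes on each side, 18 were in the table and 10 were tested. By edgeR, IFNγ raised 0 of these 10 and lowered 3, with a median of -0.46, where 8.17% of all tested genes were called higher and 4.27% lower. At an unadjusted p under 0.05, 2 neighbours were higher, 0 were called higher by DESeq2 or limma-voom, and 1 was with the replicate block. The lowered genes were Tmem176a (-1.43 ± 0.26) and Tmem176b (-1.27 ± 0.19), a pair of membrane proteins of myeloid and lymphoid cells encoded just beyond Gimap3, and Igf2bp3 (-1.16 ± 0.34), an RNA-binding protein. αCD3 raised 1 and lowered 3 (4 and 4 with the replicate block), and LPS raised 3 and lowered 4, where 38.6% and 49.3% of all tested genes were called. Tmem176b was called lower in all 3 comparisons, and Tmem176a was called lower after IFNγ and αCD3 but not LPS (-0.34 ± 0.25). Tmem176b was at 23.0 ± 5.46 CPM in Naïve and at 9.53 ± 1.41 CPM in IFNγ.

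**Figure D4:**
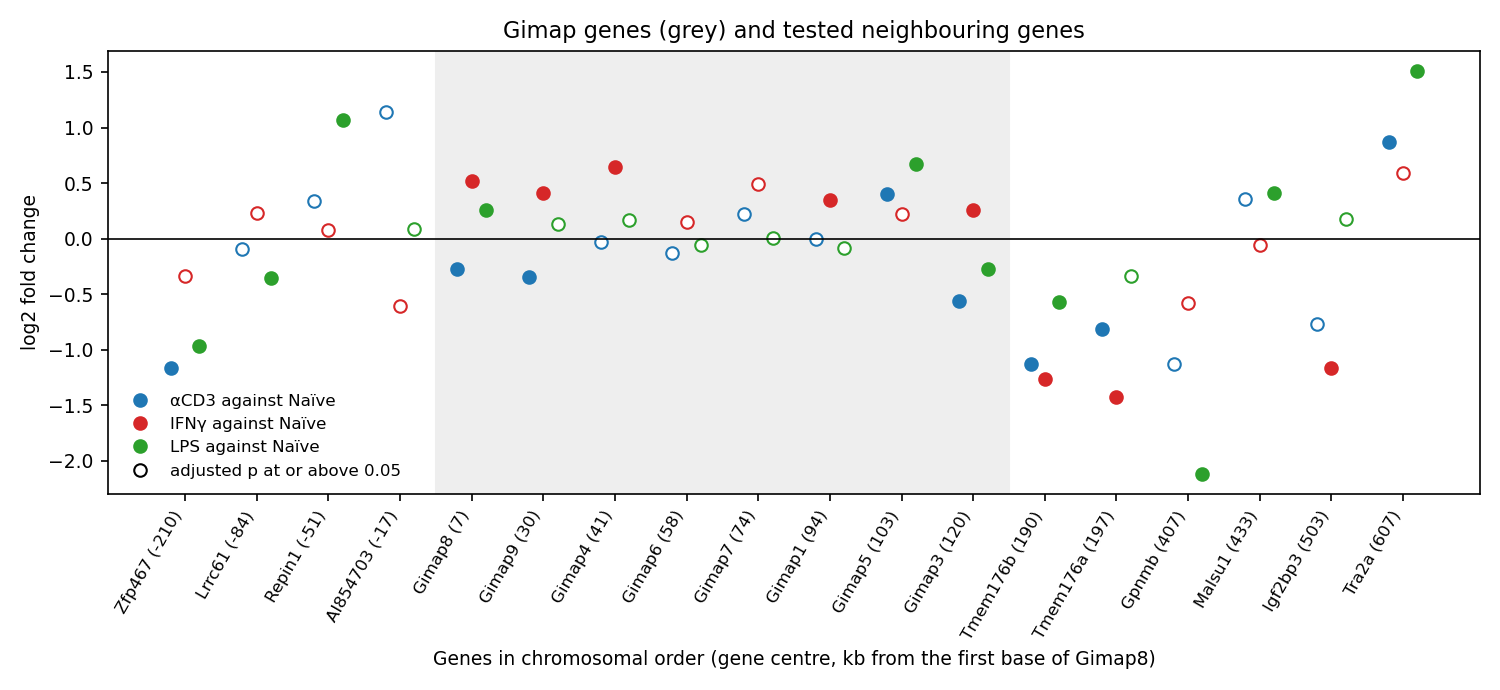
Log2 fold change against Naïve (vertical axis) of the 8 Gimap genes (grey band) and 10 tested neighbouring genes in chromosomal order, with the distance of each gene's centre from the first base of Gimap8 in kb, and open points for adjusted p at or above 0.05. The IFNγ points (red) are above 0 across the band and fall to -1.27 and -1.43 at Tmem176b and Tmem176a next to it.

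Among 8544 genes that averaged 10 CPM or more, the 5 whose log2 CPM followed the members' mean most closely over the 12 libraries were Elmo2 (Pearson r = 0.976), Eif4e3 (0.968), Fam174a (0.967), Serpinb1a (0.958) and Rab43 (0.957). Spearman's rho was 0.930 to 0.951. Elmo2, an adaptor in Rac activation, was at 67.1 ± 5.36 CPM in Naïve, 56.6 ± 0.436 in αCD3, 96.3 ± 3.07 in IFNγ and 68.4 ± 14.2 in LPS. Eif4e3, a cap-binding protein of translation, was at 14.6 ± 1.51, 13.4 ± 1.11, 33.4 ± 0.638 and 16.4 ± 4.27 CPM in the same order. All 5 had their highest mean in IFNγ and their lowest in αCD3. They were chosen for this likeness, so the values are descriptions.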

How the data were processed

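The labels set the groups. The authors ran Kallisto against mm10, and the values they deposited are estimated counts for each gene symbol, unscaled and unpooled; the Kallisto version and transcript annotation are not given in the sources used here, and the submitters' processing notes also name DESeq2 1.24.0. How shared reads were divided can move counts of genes that share stretches of sequence. Counts were rounded. Tests used edgeR 4.0.16 in R 4.3.3 (TMM, filterByExpr, robust quasi-likelihood F-test, Benjamini-Hochberg over 12122 genes, called at adjusted p under 0.05), with all 12 libraries in 1 fit on group. SE and 95% intervals come from that fit, values with ± otherwise are mean ± SD (n = 3), and log2 CPM used a prior count of 2. Replicate numbers pair the libraries, since all 18 same-numbered pairs deviated together (correlation 0.117 to 0.401). The main fit leaves this pairing out, so a member it did not call may be called with the replicate block. In IFNγ against Naïve the main fit called 12.4% of all tested genes and the block 24.9%. Scripts were tested on simulated data. Alternatives were DESeq2 1.42.0, its size factors in edgeR, limma-voom (limma 3.58.1), library size alone, no count filter, 2-group fits, a replicate block and leaving out each library. Named genes were all members, all tested neighbours, the 5 closest patterns and up to 4 called genes per list and comparison. Members and lists were chosen with earlier results of these data known. Depth was 10.2 M counts or more per library. Coordinates are from GENCODE M21 and promoters from RefSeq.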

Additional observations from a re-analysis of the deposited data

How the results depend on the processing

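Of the single-gene values under the alternatives, 518 kept direction and call, 72 lost the call, 17 gained it and 17 changed sign without being called in either setting. The count of called members in IFNγ against Naïve was 5, and was 3 with library size alone, 3 with no count filter and 3 to 5 when leaving out a library. Of all genes in the same fits, 12.4%, 18.8%, 7.59% and 6.38% to 12.4% were called, in the same order. In αCD3 against Naïve the count of members was 4, and was 2 with no count filter, 2 with limma-voom and 2 to 3 when leaving out a library. The shares of all genes called were 38.6%, 25%, 39.3% and 25.4% to 40.1%. In LPS against Naïve the count of members was 3, and was 1 without LPS replicate 2 and 5 without LPS replicate 1. The shares of all genes called were 49.3%, 38.6% and 49.8%. In IFNγ against LPS the count of members was 7. It was 3 with only the 2 groups compared and 3 to 6 when leaving out a library. In αCD3 against LPS it was 3, and 2 to 5 when leaving out a library, the 5 being without LPS replicate 1. No member was called, or had an unadjusted p under 0.05, as lower in IFNγ against αCD3 or as higher in αCD3 against LPS (0 by edgeR, DESeq2 and limma-voom). With the replicate block the counts were 6, 5, 3, 8 and 4 in these 5 comparisons, 7 in IFNγ against αCD3 and 8 for any difference. With this block, 24.9%, 52.4% and 59.5% of all tested genes were called in IFNγ, αCD3 and LPS, each against Naïve. In IFNγ against αCD3 the block called 49.7% of all tested genes, where the main fit called 37.2%. The block changed no call of a member other than those given beside the results and that of Gimap6 for any difference. With library size alone the median of all genes moved to -0.16 in IFNγ, -0.13 in αCD3 and -0.22 in LPS, each against Naïve, and all directions are relative to that shift. Under it, uncalled values changed sign for Gimap4 (-0.044), Gimap9 (-0.082) and Gimap7 (-0.20) in LPS against Naïve and for Gimap6 in αCD3 against LPS (0.027). Gimap8 after LPS dropped to 0.04 (adjusted p = 0.723), and Gimap1 (-0.29) and Gimap6 (-0.27) became called. Gimap7 in LPS against Naïve also turned to -0.0038 with DESeq2 size factors, -0.011 with no count filter, -0.0043 with DESeq2, -0.0072 with only the 2 groups and -0.0070 with the replicate block. Leaving out a library gave values of either sign for it (-0.10 to 0.15) and, in αCD3 against Naïve, for Gimap1 (-0.056 to 0.040) and Gimap4 (-0.078 to 0.0085). The cause of these changes was not tested.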
